A study of Mus musculus with 6 samples.

Results

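The 10 genes described here encode the inflammasome, pyroptosis and necroptosis machinery of the infarcted left ventricle. They are defined by function, with no threshold on a measured value, and all 10 were found among the 17556 genes of the deposited table. Bulk RNAseq was carried out on left ventricles of mice aged 6 to 10 weeks, taken 4 days post injury (dpi) after permanent ligation of the left anterior descending coronary artery, and there was no uninjured group. The 3 Cre positive mice carried Yap floxed on both alleles, Wwtr1 floxed on 1 allele and 1 copy of the tamoxifen inducible Cre MerCreMer at the endogenous Periostin promoter. The 3 Cre negative mice were their siblings with the same floxed alleles and wildtype Periostin, so Cre and 1 altered Periostin allele came together. All 6 mice, controls included, had surgery and a tamoxifen citrate diet from the day of surgery. Recombination is limited to cells that use the Periostin promoter, mainly myofibroblasts, whereas RNA came from the whole ventricle. The labels number the ventricles 1 to 3 in each group. They give neither sex nor litter, so any effect of these cannot be told apart from genotype. The p-values below set the difference between groups against the spread between these ventricles.

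Inflammasomes are cytosolic complexes in which a sensor, such as Nlrp3 or Aim2, recruits the adaptor Pycard (ASC), which gathers and activates caspase-1. Caspase-1, and caspase-4 (caspase-11 in mice) in response to intracellular lipopolysaccharide, cut gasdermin D, whose freed part forms pores through which interleukin-1β leaves and the cell lyses by pyroptosis. Necroptosis runs separately: Ripk1 engages Ripk3, which phosphorylates Mlkl, and Mlkl then breaches the plasma membrane. In the infarcted heart these pathways are known for the death of cardiomyocytes and for the interleukin-1 response of infiltrating myeloid cells.

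The estimated counts summed to between 13177888 and 14827579 per ventricle, at which 3 counts, the upper limit that a count of 0 allows, are 0.202 to 0.228 CPM (counts scaled to the library total). In the edgeR test, 1 of 13817 genes differed between genotypes at an adjusted p under 0.05 (0.00724%). *Yap1* was at 1550, 1476 and 1422 normalized counts in Cre negative ventricles 1 to 3 and at 1619, 1439 and 1477 in Cre positive ventricles (log2 fold change 0.03, adjusted p = 0.935). *Wwtr1* was at 1620, 1466 and 1608 against 1618, 1562 and 1664 (0.05, adjusted p = 0.876), so the whole-ventricle level of neither floxed gene separated the genotypes, and loss within myofibroblasts was not measured. *Postn* was at 12182, 24690 and 26918 against 12708, 14270 and 13514 normalized counts (-0.66, unadjusted p = 0.0438, adjusted p = 0.714). Markers of cardiomyocytes, fibroblasts, macrophages and monocytes were detected in each ventricle. Cre negative ventricle 1 stood apart: it had the lowest summed TPM of macrophage, fibroblast, endothelial and smooth muscle markers and the highest of cardiomyocyte and neutrophil markers, and it had the lowest value of 4437 tested genes (32.1%). The members and the pathway genes with an unadjusted p under 0.05 are therefore also given without it where their value or their side of that threshold changed.

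All 10 genes were detected in all 6 ventricles, with estimated counts between 24 and 560, and all 10 passed the filter on low counts. None differed between genotypes after adjustment over all genes tested by edgeR, by DESeq2 (which called 0.0285% of all genes) or by limma. At an unadjusted p under 0.05 in edgeR, 2 of the 10 differed, against 5.83% of all genes, and these 2 were higher in Cre positive ventricles (2.85% of all genes) while 0 were lower (2.98%). These were the necroptosis kinases *Ripk1* and *Ripk3*, which were also the only members with all Cre positive ventricles above all Cre negative ventricles, as in 7.55% of all genes, and no member had all of them below (6.85% of all genes). The mean was higher in Cre positive ventricles for 7 of 10 members, against 51.2% of all genes, and the median log2 fold change was 0.18 over the members and 0.0062 over all genes. In whole tissue, more or fewer cells of a type and more or less RNA per cell cannot be told apart.

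**Figure D1:**
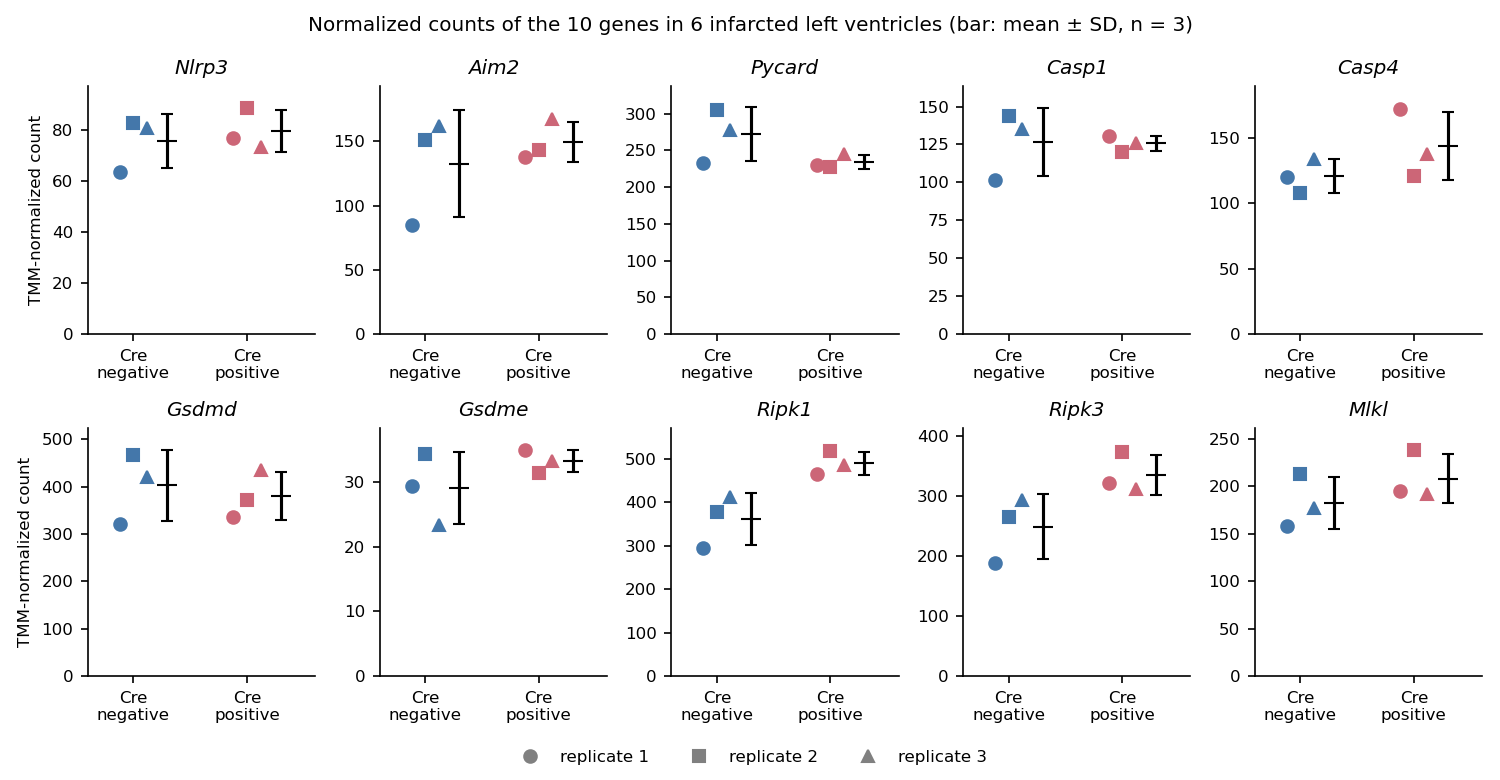
Counts after TMM normalization (vertical axis, from 0) of each gene in each ventricle, Cre negative in blue and Cre positive in red, with the mean and SD of 3 ventricles beside the points. The groups are separate for *Ripk1* and *Ripk3* and overlap for the other 8 genes.

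The level of each gene was compared per transcript length, as TPM (transcript abundance scaled to length and to the library) averaged over the 6 ventricles. *Gsdmd* was the highest at 29.6 TPM, above 67.0% of the genes tested, and *Ripk3* followed at 20.8 TPM. *Pycard* was at 15.7, *Ripk1* at 13.7, *Mlkl* at 13.4, *Casp4* at 13.3 and *Casp1* at 11.3 TPM. *Aim2* was at 6.80 TPM, *Nlrp3* at 2.57 and *Gsdme*, the lowest, at 1.89, above 10.9% of the genes tested. Among neighbours in this order, the ranges over ventricles were apart for *Aim2* and *Nlrp3* only. *Gsdmd* exceeded *Ripk3*, *Casp1* exceeded *Aim2*, *Aim2* exceeded *Nlrp3* and *Nlrp3* exceeded *Gsdme* within each of the 6 ventricles. The order of *Pycard*, *Ripk1*, *Mlkl* and *Casp4* varied from ventricle to ventricle, with *Pycard* above *Ripk1* in 3 of 6 and *Mlkl* above *Casp4* in 2 of 6.

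**Figure D2:**
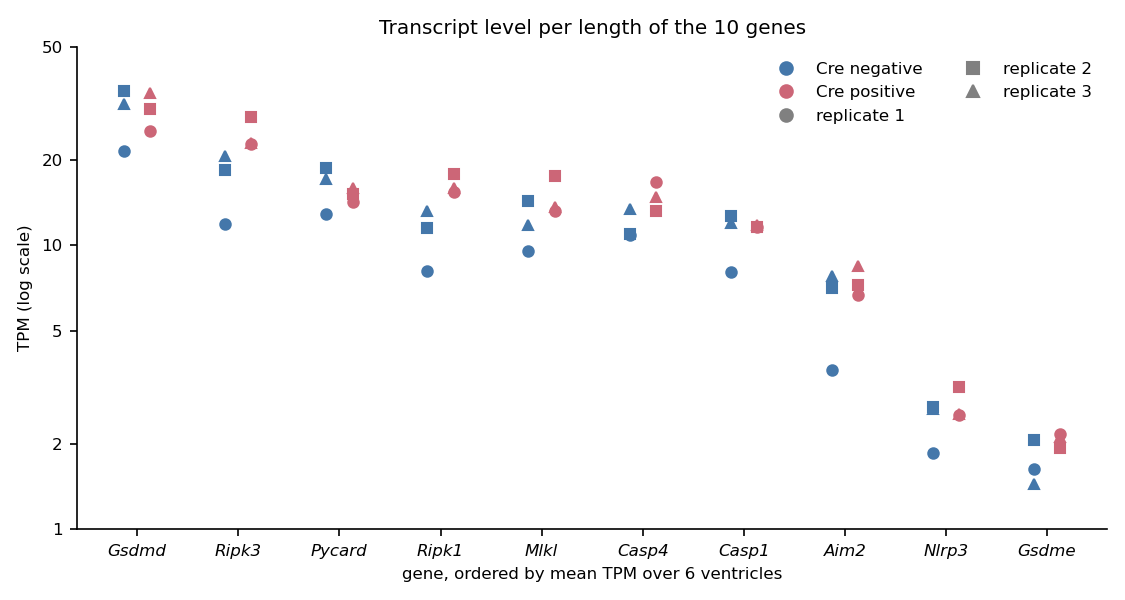
TPM on a log axis of the 10 genes, ordered by their mean over 6 ventricles, with each ventricle as a point. *Gsdmd* lies at the top with a mean of 29.6 TPM, and *Nlrp3* and *Gsdme* lie below the other 8 genes.

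*Ripk1* (gene ID 19766; chr13:34002225-34035170, plus strand, GRCm38.p6) encodes the kinase that relays death receptor signals to survival, apoptosis or necroptosis. Its normalized counts were 296, 377 and 414 in Cre negative ventricles 1 to 3 and 466, 518 and 485 in Cre positive ventricles 1 to 3. Each Cre positive ventricle was above each Cre negative ventricle, and the lowest value was that of Cre negative ventricle 1. The means were 362 ± 60.4 and 490 ± 26.4 (SD, n = 3), a 1.35-fold difference (95% interval 1.09 to 1.68; log2 0.43, SE 0.13). Its unadjusted p was 0.0128 and its adjusted p 0.714 by edgeR. The exact permutation test (two-sided) gave p = 0.1, which is the smallest possible with 3 ventricles per group. Its span overlaps *Serpinb6a* (2499 to 2973 normalized counts over the ventricles; log2 fold change -0.09, adjusted p = 0.777), and whether the counting used strand is not given in the sources used here, so reads of the overlap may be shared.

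*Ripk3* (gene ID 56532; chr14:55784995-55788857, minus strand) encodes the kinase that forms the necrosome with Ripk1 and phosphorylates Mlkl. It was at 188, 264 and 293 normalized counts in Cre negative ventricles and at 321, 373 and 311 in Cre positive ventricles. These groups did not overlap either, and Cre negative ventricle 1 was again the lowest. The means were 249 ± 54.0 and 335 ± 33.1 (SD, n = 3), a 1.34-fold difference (95% interval 1.02 to 1.77; log2 0.43, SE 0.17), with an unadjusted p of 0.0392, an adjusted p of 0.714 and an exact permutation p of 0.1. Without Cre negative ventricle 1 the log2 difference of *Ripk3* was 0.26 (unadjusted p = 0.0645) and that of *Ripk1* was 0.30 (unadjusted p = 0.0129), and both genes still had separate groups, as 12.1% of all genes then did in this direction. Leaving out any single ventricle other than Cre negative 3 took the unadjusted p of *Ripk3* above 0.05. The *Ripk3* span overlaps the RefSeq gene *Gm32092*, which is not in the deposited table, so reads of that overlap may be included in *Ripk3*.

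*Mlkl* (gene ID 74568; chr8:111311255-111338479, minus strand) encodes the pseudokinase that executes necroptosis. It was at 158, 212 and 177 normalized counts in Cre negative ventricles and at 194, 238 and 192 in Cre positive ventricles. The groups overlapped, and the highest value came from Cre positive ventricle 2, as for *Ripk1* and *Ripk3*. Its means were 182 ± 27.6 and 208 ± 25.8 (log2 fold change 0.19, 95% interval -0.18 to 0.55, adjusted p = 0.740). The log2 fold change was 0.09 without Cre negative ventricle 1, 0.08 without Cre positive ventricle 2 and 0.31 without Cre negative ventricle 2.

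Across the 6 ventricles *Ripk1* and *Ripk3* had the highest correlation of all pairs of members (Pearson r = 0.98 across log2 values, a description in which the points share library depth and Cre negative ventricle 1). Their TPM ratio was nearly constant: *Ripk3* was at 1.46, 1.598 and 1.56 times the level of *Ripk1* in Cre negative ventricles and at 1.47, 1.58 and 1.43 times in Cre positive ventricles. The *Mlkl* to *Ripk3* ratio was 0.805, 0.778 and 0.573 in Cre negative ventricles and 0.584, 0.621 and 0.597 in Cre positive ventricles. Cre negative ventricle 3 lay with the Cre positive ventricles in that ratio, and the difference of -0.24 (log2) had an exact permutation p of 0.4.

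Bases before a start site of *Ripk1* and of *Ripk3* are shown because these genes varied together and because Yap and Wwtr1 act through TEAD transcription factors. In RefSeq (GRCm38.p6), 12 start sites of 9 members were listed, and the 250 bases before each were searched on both strands for GGAATG (TEAD), for GGGA and CC with any 4 bases between them (NF-kB) and for 2 runs of GAAA with any 2 bases between them (interferon regulatory factors). *Gsdmd* was not matched. The 30 bases around the TEAD match of *Ripk1*, on the plus strand at chr13:34002225-34002254, lie inside its annotated span and before its first listed start, and the capitals mark the match, which reads GGAATG on the other strand and lies 126 to 121 bases before that start. The window of the other *Ripk1* start (chr13:34002624-34002873) holds none of these motifs and is not printed. For *Ripk3* the whole window is printed in the direction of the gene (chr14:55788858-55789107, minus strand), and it has no capitals because it holds none of these motifs.
Ripk1: aggcaaaagtgcCATTCCttccgcccgcgg
Ripk3: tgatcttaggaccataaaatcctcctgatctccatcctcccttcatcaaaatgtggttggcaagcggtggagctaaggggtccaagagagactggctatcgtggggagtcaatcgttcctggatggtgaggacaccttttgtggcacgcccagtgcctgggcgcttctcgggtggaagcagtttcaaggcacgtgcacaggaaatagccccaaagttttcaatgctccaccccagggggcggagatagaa
A TEAD match was present in 2 of 12 member windows, those of *Ripk1* and *Aim2*, and in 12.6% of all 32851 RefSeq windows. NF-kB letters were found in 3 of 12 member windows, belonging to *Nlrp3* and *Casp4*, and in 17.6% of all windows. The 2 *Casp4* windows overlap and hold the same site, so these are 2 sites. The *Casp4* match (capitals, 92 to 83 bases before its first listed start, chr9:5308747-5308776, plus strand) reads as the motif on both strands.
Casp4: tgagttacagGGGATTTCCCcacagcagtt
Interferon regulatory factor letters were in 0 of 12 member windows and in 2.98% of all windows. A match describes the letters only.

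Among the sensors, *Nlrp3* (gene ID 216799; chr11:59541569-59566955, plus strand) responds to ion fluxes and membrane damage. It was at 63.6, 82.6 and 80.8 normalized counts in Cre negative ventricles and at 76.8, 88.8 and 73.4 in Cre positive ventricles. Cre negative ventricle 1 was the lowest and Cre positive ventricle 2 the highest, and the groups overlapped. The log2 fold change was 0.07 (SE 0.19, 95% interval -0.36 to 0.51, adjusted p = 0.918). It turned to -0.04 without Cre negative ventricle 1 and to -0.01 without Cre positive ventricle 2.

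*Aim2* (gene ID 383619; chr1:173349547-173466040, plus strand) encodes the sensor of cytosolic double-stranded DNA. Its values were 84.8, 151 and 162 normalized counts in Cre negative ventricles and 138, 143 and 167 in Cre positive ventricles. Cre negative ventricle 1 was far below the other 5, which overlapped in a narrow range. The coefficient of variation was 31.4% in Cre negative ventricles, the largest of the 10 genes, and the log2 fold change of 0.17 (SE 0.24, adjusted p = 0.838) became -0.07 without that ventricle. Its span overlaps *Cadm3* (log2 fold change 0.11, adjusted p = 0.917).

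*Pycard* (gene ID 66824; chr7:127991373-127993867, minus strand) encodes the adaptor ASC and had the lowest log2 fold change of the members. It was at 233, 306 and 277 normalized counts in Cre negative ventricles and at 230, 228 and 246 in Cre positive ventricles. The Cre positive values lay within a narrow band, which Cre negative ventricle 1 shared. The means were 272 ± 36.5 and 234 ± 9.69 (SD, n = 3; log2 fold change -0.22, SE 0.13, 95% interval -0.51 to 0.08, adjusted p = 0.714). Without Cre negative ventricle 1 the difference was -0.32 (unadjusted p = 0.0209, where 6.59% of all genes had an unadjusted p under 0.05), and the groups no longer overlapped, as for 11.8% of all genes in this direction. Without Cre negative ventricle 2 it was -0.12.

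*Casp1* (gene ID 12362; chr9:5298517-5307281, plus strand) encodes the protease that matures interleukin-1β and interleukin-18 and cuts gasdermin D. It was at 101, 144 and 135 normalized counts in Cre negative ventricles and at 131, 120 and 126 in Cre positive ventricles. The Cre positive values lay between those of Cre negative ventricles 1 and 3. The means were 127 ± 22.4 and 126 ± 5.22 (log2 fold change -0.01, 95% interval -0.41 to 0.38, adjusted p = 0.985). Without Cre negative ventricle 1 the difference was -0.15 and the groups did not overlap, as for 11.8% of all genes in this direction. With any single ventricle left out, the unadjusted p of *Casp1* by edgeR was 0.312 or higher.

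*Casp4* (gene ID 12363; chr9:5308849-5336791, plus strand) lies just after *Casp1* on the chromosome and encodes the lipopolysaccharide-binding caspase of the noncanonical inflammasome. It was at 120, 108 and 134 normalized counts in Cre negative ventricles and at 173, 121 and 138 in Cre positive ventricles. The groups overlapped, and Cre positive ventricle 1 stood above the other 5. The log2 fold change was 0.25 (SE 0.18, 95% interval -0.16 to 0.66, adjusted p = 0.722) and 0.10 without Cre positive ventricle 1. The *Casp4* to *Casp1* TPM ratio was 1.35, 0.864 and 1.12 in Cre negative ventricles and 1.44, 1.14 and 1.26 in Cre positive ventricles, which overlap (exact permutation p = 0.4).

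The *Casp1* to *Pycard* TPM ratio, which does not depend on how libraries are scaled, was 0.624, 0.675 and 0.701 in Cre negative ventricles and 0.816, 0.760 and 0.739 in Cre positive ventricles. Each Cre positive ventricle was above each Cre negative ventricle. The difference was 0.21 on the log2 scale with an exact two-sided permutation p of 0.1, the smallest possible, and an adjusted p of 0.6 over the 6 ratios compared. It was the only one of the 6 ratios whose groups were separate, and it stayed between 0.16 and 0.25 with any single ventricle left out. The *Nlrp3* to *Aim2* ratio was 0.512, 0.382 and 0.342 against 0.380, 0.436 and 0.301, and overlapped (exact permutation p = 0.6).

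*Gsdmd* (gene ID 69146; chr15:75862144-75867408) encodes gasdermin D, the pore-forming executioner of pyroptosis. It was at 320, 467 and 419 normalized counts in Cre negative ventricles and at 335, 372 and 435 in Cre positive ventricles. The groups overlapped over most of their range. The means were 402 ± 74.8 and 381 ± 50.7 (SD, n = 3; log2 fold change -0.08, 95% interval -0.46 to 0.30, adjusted p = 0.890). The difference was -0.22 without Cre negative ventricle 1 and 0.04 without Cre negative ventricle 2.

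*Gsdme* (gene ID 54722; chr6:50207401-50263857, minus strand) encodes gasdermin E, another pore-forming gasdermin. It was at 29.4, 34.4 and 23.4 normalized counts in Cre negative ventricles and at 34.9, 31.4 and 33.3 in Cre positive ventricles. The Cre positive values were close together and one Cre negative value lay among them. The log2 fold change was 0.19 (SE 0.26, 95% interval -0.42 to 0.80, adjusted p = 0.829), and counting alone gives a coefficient of variation of 17.9% at this level, the largest of the 10 genes. The log2 fold change was 0.05 without Cre negative ventricle 3 and 0.33 without Cre negative ventricle 2. The *Gsdmd* to *Gsdme* TPM ratio was 13.2, 16.9 and 21.9 against 11.7, 15.6 and 16.3, which overlap (exact permutation p = 0.4).

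Leaving out each ventricle in turn kept the direction of *Pycard*, *Casp4*, *Gsdme*, *Ripk1*, *Ripk3* and *Mlkl* and turned that of *Nlrp3*, *Aim2*, *Casp1* and *Gsdmd* in at least 1 case. *Ripk1* stayed between 0.30 and 0.54 on the log2 scale and had an unadjusted p under 0.05 in each of the 14 alternatives run. On the TPM scale the median of all genes was 0.11 higher in Cre positive ventricles, and 10099 of 13817 genes had a higher mean. So did 9 of 10 members, *Casp1* (0.11) and *Gsdmd* (0.05) among them. There *Ripk1* differed by 0.56 and *Ripk3* by 0.54, which is 0.45 and 0.43 above that median.

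**Figure D3:**
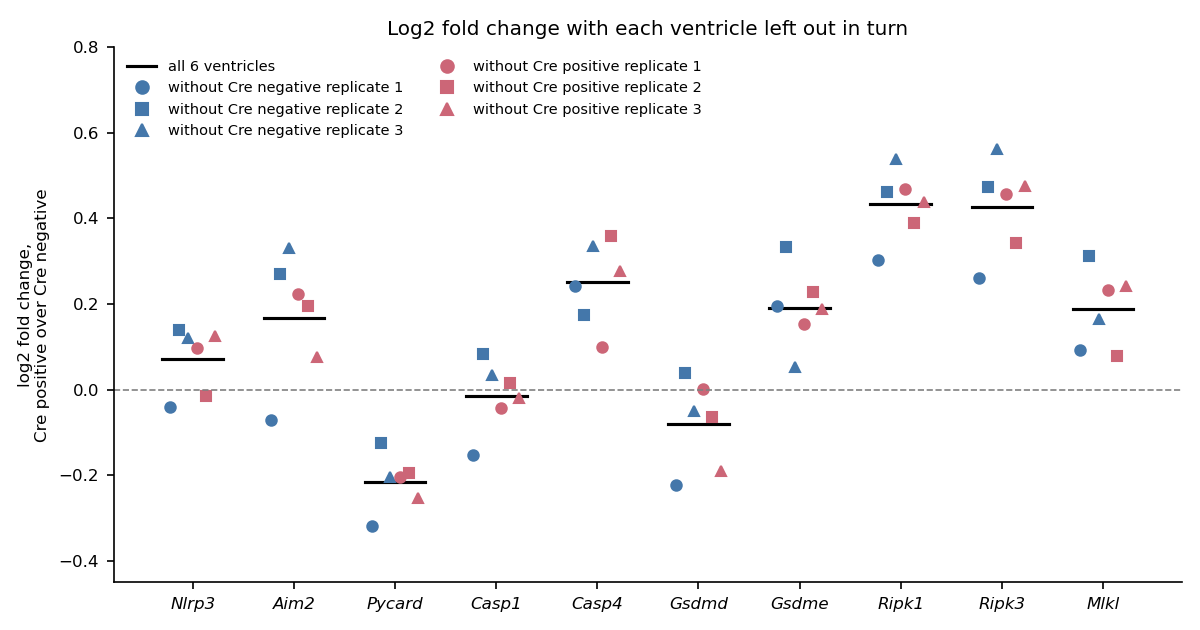
Log2 fold change, Cre positive over Cre negative, of each gene in all 6 ventricles (black line) and with 1 ventricle left out (points). *Ripk1* and *Ripk3* remain above 0 throughout, *Pycard* remains below 0, and the estimates without Cre negative ventricle 1 are the lowest for 7 of 10 genes.

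Cre negative ventricle 1 had the lowest value of 7 of the 10 members, all but *Pycard*, *Casp4* and *Gsdme*. The mean profile of the 10 members, as centred log2 CPM, was -0.32 in that ventricle and 0.02 to 0.09 in the other 5. The 3 genes whose profiles were most like it over the 6 ventricles were *Hdac7* (Pearson r = 0.999), *Trim27* (0.998) and *Cap1* (0.996). Each of these was also lowest in Cre negative ventricle 1, which the likeness rests on. Without that ventricle the mean was higher in Cre positive ventricles for 5 of 10 members, against 6999 of 13995 genes. The median log2 fold change was then 0.03 over the members and 9.7e-05 over all genes.

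Marker lists moved with these genes in part. The summed TPM of 5 monocyte markers was 380 to 698 in Cre negative and 788 to 883 in Cre positive ventricles, without overlap, with 4 of 5 markers higher in the mean. Of these 5 markers 1 had separate groups, *Fn1*, a matrix gene that fibroblasts also make (257 to 580 against 643 to 685 TPM), and the other 4 summed to 89.5 to 199 against 145 to 198 TPM, which overlap. That of 9 cardiomyocyte markers was 65408 to 78283 in Cre negative and 57913 to 64338 in Cre positive ventricles, also without overlap, with 0 of 9 higher in the mean. In normalized counts 6 of these 9 markers had all Cre positive ventricles below all Cre negative ventricles, as in 6.85% of all genes. The cardiomyocyte sum and *Fn1* separated the genotypes as *Ripk1* and *Ripk3* did, and their part in those differences was not tested. The 10 macrophage markers summed to 2201 to 3433 against 2728 to 3148 TPM and the 11 neutrophil markers to 59.9 to 491 against 81.3 to 182 TPM, and both overlapped. Fibroblast markers summed to 4953 to 8263 against 7882 to 8909 TPM, endothelial markers to 429 to 538 against 532 to 606, and smooth muscle markers to 481 to 981 against 961 to 1098. Overlap was also seen for atrial markers (8202 to 9833 against 6881 to 16600 TPM), T cell markers (2.43 to 6.10 against 3.17 to 9.88) and B cell markers (10.4 to 41.6 against 7.22 to 60.7). No marker was at 0 in all ventricles, whereas 2 neutrophil markers and 1 T cell marker were at 0 in at least 1 ventricle.

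**Figure D4:**
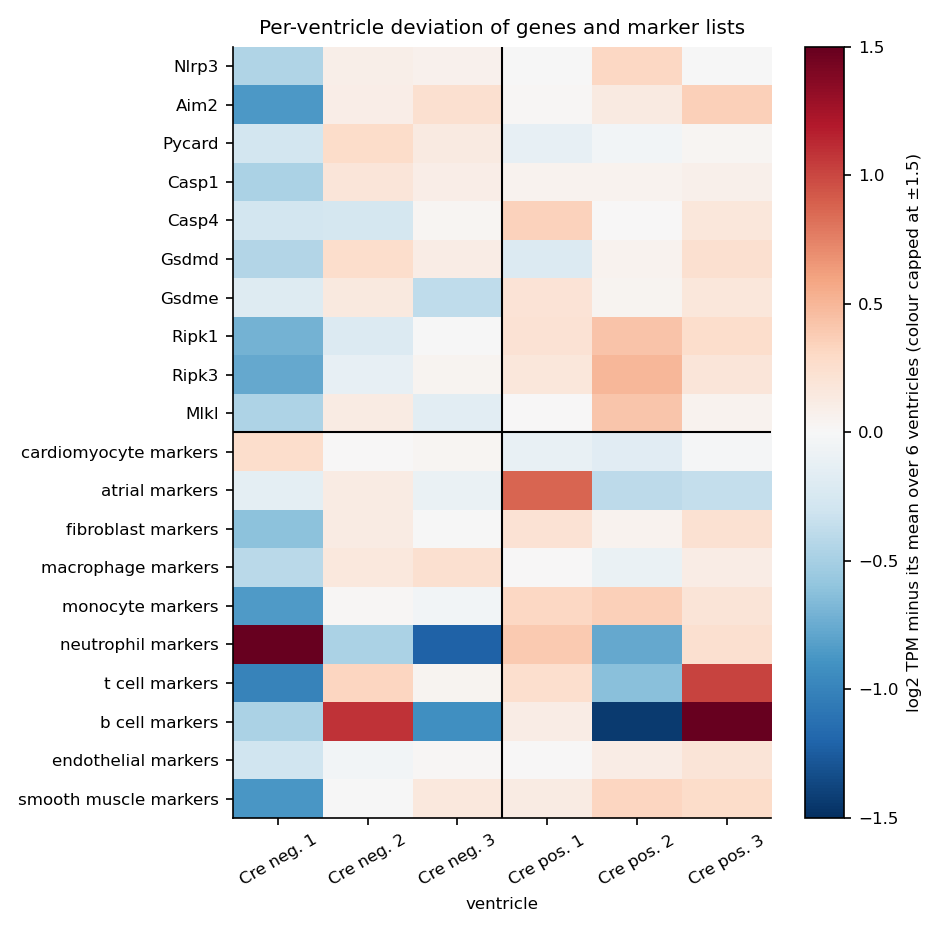
Deviation of log2 TPM from its mean over the 6 ventricles, for the 10 genes (upper block) and for summed marker lists (lower block), one column per ventricle. The column of Cre negative ventricle 1 is low for all 10 genes on this scale and for fibroblast and macrophage markers, and high for cardiomyocyte and neutrophil markers.

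Beyond the 10 genes, a list of 70 genes of the same pathways was read from the same test, of which 65 were in the table and 59 were tested. None passed an adjusted p of 0.05 in edgeR, DESeq2 or limma. At an unadjusted p under 0.05, 3 were higher and 2 lower in Cre positive ventricles, against 2.85% and 2.98% of all genes. Separate groups were found for 7 in the first direction and for 2 in the second, against 7.55% and 6.85% of all genes. The mean was higher for 37 of 59 (51.2% of all genes) and the median log2 fold change was 0.09. Without Cre negative ventricle 1 these were 31 of 59 and 0.04, against 6999 of 13995 genes and a median of 9.7e-05 over all genes. On the TPM scale they were 51 of 59 and 0.17, against 10099 of 13817 genes and a median of 0.11 over all genes. Among these 59 genes 21 were lowest in Cre negative ventricle 1, against 32.1% of all genes. Without that ventricle 5 again had an unadjusted p under 0.05, against 6.59% of all genes. These were *Il1b*, *Cflar* and *Nlrp10* as before, with *Txnip* and *Il18r1*, the last named after its values were seen, in place of *Casp8* and *Tab1*.

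The interleukin-1 family held the largest difference of the list. *Il1b*, the interleukin-1β precursor that caspase-1 matures, was at 30.6, 29.5 and 47.7 normalized counts in Cre negative ventricles and at 60.8, 70.3 and 106 in Cre positive ventricles. The groups did not overlap, and Cre positive ventricle 3 was the highest. The means were 35.9 ± 10.2 and 78.9 ± 23.6 (SD, n = 3; log2 fold change 1.13, unadjusted p = 0.00659, adjusted p = 0.714), and the log2 fold change lay between 0.86 and 1.39 over the 14 alternatives, each with an unadjusted p under 0.05. Of the 10 tested genes of this family 8 had a higher mean, with a median log2 fold change of 0.18. The genes with the highest TPM were *Il18bp*, the secreted inhibitor of interleukin-18 (-0.11), and *Il1r1*, the signalling interleukin-1 receptor (0.22), neither with an unadjusted p under 0.05.

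In the complexes that act downstream of death receptors (17 tested, 9 with a higher mean, median 0.02), *Casp8* and *Cflar* had separate groups with Cre positive above, and *Fadd*, the adaptor that recruits caspase-8, had separate groups with Cre positive below (449, 396 and 390 against 365, 383 and 331 normalized counts, log2 fold change -0.19, unadjusted p = 0.104; named after its values were seen). *Casp8*, which cuts Ripk1 and Ripk3 and so restrains necroptosis, was at 364, 442 and 416 normalized counts in Cre negative ventricles and at 458, 540 and 495 in Cre positive ventricles (log2 fold change 0.29, unadjusted p = 0.0335, adjusted p = 0.714). *Cflar*, the catalytically inactive partner of caspase-8, was at 550, 543 and 549 against 595, 682 and 635 (0.22, unadjusted p = 0.0321, adjusted p = 0.714). Both lay in the direction of *Ripk1* and *Ripk3*. Without Cre negative ventricle 1 *Casp8* differed by 0.21 (unadjusted p = 0.0692), and its unadjusted p was also above 0.05 without Cre negative ventricle 3, Cre positive ventricle 2 or Cre positive ventricle 3, while that of *Cflar* was above 0.05 without Cre negative ventricle 2 or 3 or Cre positive ventricle 2 or 3. *Tab1*, which activates the kinase Tak1, was at 433, 410 and 458 against 341, 320 and 411, with Cre positive ventricle 3 inside the Cre negative range (-0.28, unadjusted p = 0.0478, adjusted p = 0.714), and its unadjusted p was above 0.05 with any single ventricle left out other than Cre positive 3. *Tnfrsf1a*, the main receptor of tumour necrosis factor, and *Rbck1*, a subunit of the linear ubiquitin ligase, had the highest TPM and differed by 0.09 and -0.05.

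Of the other inflammasome sensors (12 tested, 9 with a higher mean, median 0.12), *Nlrp10* was at 664, 532 and 519 normalized counts in Cre negative ventricles and at 465, 453 and 434 in Cre positive ventricles. Here the Cre positive ventricles were all below the Cre negative ventricles (log2 fold change -0.34, unadjusted p = 0.0189, adjusted p = 0.714). It differed by -0.22 without Cre negative ventricle 1 (unadjusted p = 0.028) and had an unadjusted p of 0.0599 without Cre positive ventricle 3. *Nod1*, which senses bacterial peptidoglycan, differed by 0.16 and *Ifi204*, a DNA sensor related to Aim2, by 0.05. Inflammasome regulators (7 tested, 4 with a higher mean, median 0.06) included *Nek7*, the Nlrp3-binding kinase, at -0.08 and *Txnip*, a thioredoxin-binding protein, at -0.38, and 0 of 7 had an unadjusted p under 0.05. *Txnip* differed by -0.59 without Cre negative ventricle 1 (unadjusted p = 0.0158) and by -0.02 without Cre negative ventricle 2. *Ninj1*, which ruptures the membrane of dying cells, was the only tested gene of the membrane rupture list (-0.28, with -0.15 without Cre negative ventricle 1, -0.38 without Cre negative ventricle 2 and an unadjusted p under 0.05 in 3 of the 14 alternatives), and *Gsdma* was too low to be tested.

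Genes linked to necroptosis outside the death receptor list (5 tested, 3 with a higher mean, median 0.11) included *Zbp1*, a nucleic acid sensor that binds Ripk3, at 0.12 and the mitochondrial phosphatase *Pgam5* at -0.05. Apoptotic caspases and their partners (7 tested, 4 with a higher mean, median 0.02) included *Casp6* at -0.16. No gene of these lists had an unadjusted p under 0.05.

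**Figure D5:**
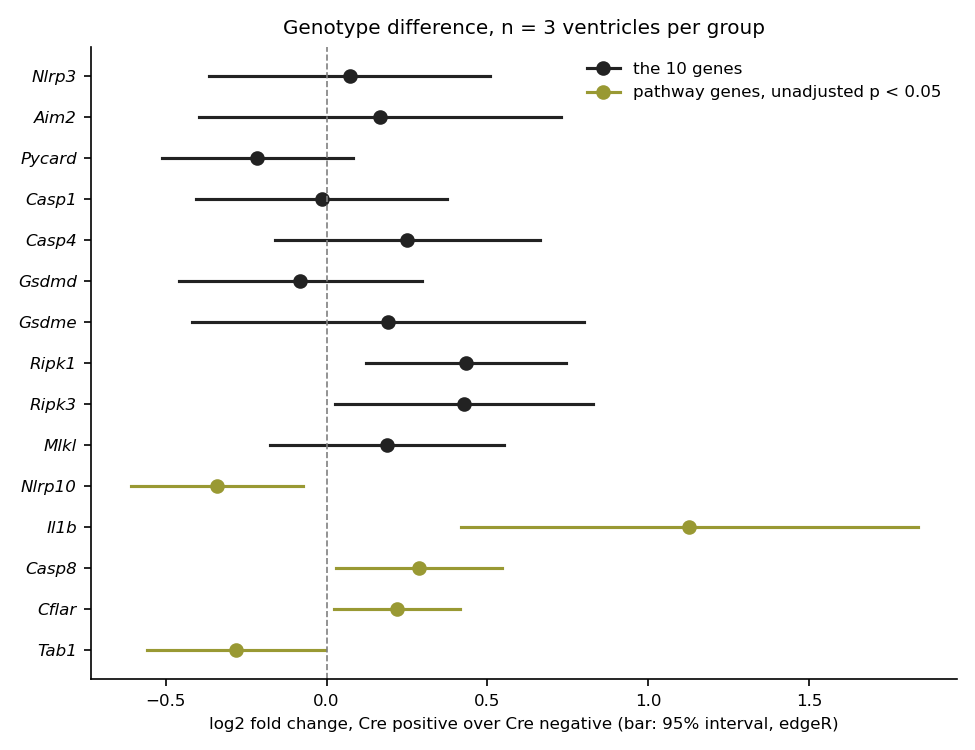
Log2 fold change, Cre positive over Cre negative, with its 95% interval from edgeR (n = 3 per group), for the 10 genes in black and for the pathway genes with an unadjusted p under 0.05 in olive. The intervals of *Ripk1* and *Ripk3* lie above 0 before adjustment, those of the other 8 genes span 0, and *Il1b* lies furthest from 0 at 1.13.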

How the data were processed

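RNA was extracted with TRIzol, and libraries were made by BGI Americas. Per the submitters' processing notes, Bowtie2 2.2.5, RSEM 1.2.12 and the build GRCm38.p6 were used, with roles, settings and strand not given in the sources used here. The authors deposited estimated counts, which are not normalized and of which 11.5% are not whole. They also deposited TPM and FPKM values, scaled to transcript length and library size. FPKM was used only in an alternative for the ratios. The authors' mean columns and their own DESeq2 comparison (log2 fold change, p and q values) were not used.

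Counts were rounded and compared in R 4.3.3 with edgeR 4.0.16 (quasi-likelihood test, no covariate, TMM, filterByExpr at its minimum count, 10, and minimum total, 15, 95% intervals), and p-values were adjusted by Benjamini-Hochberg over 13817 genes. Normalized counts were obtained by dividing counts by the TMM-scaled library size and multiplying by its mean. Exact permutation tests (two-sided, difference of means) of the normalized counts of single genes and of log2 TPM ratios were run in Python 3.11.15 (pandas 2.3.3), and figures were drawn with matplotlib 3.10.9. Between-gene levels are mean TPM. The 95% intervals of fold changes include the spread between ventricles, whereas the limit of 3 counts and the counting coefficient of variation cover counting error only. Pairs of libraries differed by 8.04 to 67.6 in chi-square per gene, so none was counted as a duplicate. Tested on simulated counts of 13817 genes, the edgeR test called 76 of 100 genes changed 2-fold, 93 of 100 changed 4-fold and 12 of 13513 unchanged genes. The changed genes were simulated together, which eases the Benjamini-Hochberg adjustment, whereas 1 gene was called in the real data. These shares therefore do not apply to a single changed gene or to changes under 2-fold.

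The members, the pathway list and the marker lists were chosen with earlier results of these data known. Named genes are the 10 members, pathway genes with an unadjusted p under 0.05 or among the 2 with the highest mean TPM of their list, and the 3 genes most like the members' mean profile. A gene that this rule names is not reported here. *Card8*, *Gsdma2*, *Gsdma3*, *Gsdmc2*, *Gsdmc3* and the T cell marker *Trac* were not matched to the table. Positions and promoter sequences are from RefSeq (GRCm38.p6). Alternatives were no filter, a mean of at least 50 counts, DESeq2 size factors, upper-quartile scaling, the replicate number as a block, DESeq2 1.42.0, limma 3.58.1 on log2(TPM + 1) and log2(TPM + 0.1), and leaving out each ventricle. The monocyte list without *Fn1* was added after seeing the data.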

Additional observations from a re-analysis of the deposited data

How the results depend on the processing

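No member and no pathway gene passed an adjusted p of 0.05 in any of the 14 alternatives, in which the adjusted p of *Ripk1* was 0.509 to 0.970 and that of *Ripk3* 0.509 to 0.990. The number of all genes called was 1, and 0 with the replicate block, 5 with DESeq2, 2 with limma at either pseudocount and 0 to 2 with a ventricle left out. Members with an unadjusted p under 0.05 numbered 2, and 1 to 2 with a ventricle left out. With limma there were 3, *Casp4* being added. The share of all genes at that threshold was 5.83%, with limma 7.23% and 7.03%, with the replicate block 8.81%, with DESeq2 4.80% and with a ventricle left out 2.68% to 9.61%. Pathway genes with an unadjusted p under 0.05 numbered 5, and 8 with the replicate block, 3 with DESeq2, 8 with limma at either pseudocount and 2 to 6 with a ventricle left out, the 2 being without Cre positive ventricle 3. The cause was not tested.

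On the TPM scale (limma, pseudocounts 1 and 0.1) the sign turned for *Casp1* (0.11 and 0.12), *Gsdmd* (0.0465 and 0.0486), *Nek7* (0.0425 and 0.0432), *Il18bp* (0.018 and 0.0184), *Rbck1* (0.0677 and 0.0687) and *Pgam5* (0.0674 and 0.0693). That scale gave 10099 of 13817 genes a higher mean, against 7077 with TMM. With a ventricle left out the sign turned for *Nlrp3* (-0.0395 to 0.14), *Aim2* (-0.0706 to 0.33), *Casp1* (-0.15 to 0.0839), *Gsdmd* (-0.22 to 0.0396), *Ifi204* (-0.14 to 0.34), *Il18bp* (-0.25 to 0.0162), *Zbp1* (-0.13 to 0.48), *Pgam5* (-0.0918 to 0.0197) and the *Nlrp3* to *Aim2* ratio (-0.27 to 0.0252). *Nek7* (-0.13 to -0.003), *Rbck1* (-0.11 to -0.0053), *Tnfrsf1a* (0.05 to 0.14) and *Casp6* (-0.25 to -0.05) kept their sign with a ventricle left out. The replicate numbers did not pair the ventricles (correlations of deviations 0.354, 0.073 and -0.032, and not each ventricle correlated best with its own number), and the replicate block left *Ripk1* and *Ripk3* as the members with an unadjusted p under 0.05, with 1217 of all genes against 806. With a mean of at least 50 counts *Gsdme* was not tested. At 24 to 560 counts per ventricle and 3 ventricles per group, the intervals of all members other than *Ripk1* and *Ripk3* allow differences of either sign.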
